A study of Mus musculus with 2 samples.

Results

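The genes described here write, erase and read methylation of cytosine in DNA. They are 9 genes taken by name: the methyltransferases Dnmt1, Dnmt3a and Dnmt3b, the Dnmt1 cofactor Uhrf1, the dioxygenases Tet1, Tet2 and Tet3, and the methyl-binding domain genes Mbd2 and Mbd3. All 9 were found by gene identifier among the 43346 genes in the tables, and their 62 quantified transcripts were all matched. They were chosen by name and role, with no threshold on a measured value, but with earlier results of these data known.

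The samples were hindbrain of B6NCrl mouse embryos at embryonic day 15.5, both sexes mixed, untreated and with no mutant allele named. The hindbrain becomes the medulla, pons and cerebellum. There was 1 group with 2 biological replicates, and each replicate was a pool: 78 embryos for replicate 1 and 62 for replicate 2. Total RNA was sequenced from 10 ng per library with spike-in RNAs, with 40020322 and 43263959 estimated counts in genes. With 1 group there was no contrast between conditions, so levels, isoforms and the spread between the pools are given and no p-value. An SD here is that of 2 pools, so it is imprecise.

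In mammals, methyl groups sit mainly on cytosines followed by guanine (CpG). Dnmt3a and Dnmt3b set new methylation, and Dnmt1, brought to newly copied DNA by Uhrf1, keeps it through cell division. Tet enzymes oxidise 5-methylcytosine to 5-hydroxymethylcytosine and further forms, which base excision repair can replace by plain cytosine. Neurons are known for high 5-hydroxymethylcytosine and for methylation set by Dnmt3a after birth. Mbd2 and Mbd3 are alternative subunits of the repressor complex NuRD. Mbd2 binds methylated CpG, whereas mammalian Mbd3 binds it poorly.

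Promoter sequences are shown first because several of these genes have more than 1 start, and the starts differ in the substrate of the pathway itself, CpG. RefSeq windows of 250 bases upstream of a start (build GRCm38.p6) were matched for 8 of the 9 genes, in 13 windows. The 32851 windows of all genes in that table held a median of 6 CpG, with quartiles of 2 and 16. In each sequence below, read 5′ to 3′ on the gene's own strand, the capitals mark CpG.

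Dnmt1, upstream start, chr9:20959889-20960138, minus strand: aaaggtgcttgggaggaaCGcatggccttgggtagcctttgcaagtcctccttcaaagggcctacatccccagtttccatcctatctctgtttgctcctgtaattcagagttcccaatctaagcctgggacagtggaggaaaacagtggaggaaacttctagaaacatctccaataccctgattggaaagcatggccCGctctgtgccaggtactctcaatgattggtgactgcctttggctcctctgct
Dnmt1, main start, chr9:20952980-20953229, minus strand: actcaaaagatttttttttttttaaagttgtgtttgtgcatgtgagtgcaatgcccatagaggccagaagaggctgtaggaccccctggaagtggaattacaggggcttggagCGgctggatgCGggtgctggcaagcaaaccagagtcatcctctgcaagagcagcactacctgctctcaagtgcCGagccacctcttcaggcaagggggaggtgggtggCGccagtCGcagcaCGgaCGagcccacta
Uhrf1, upstream start, chr17:56303087-56303336, plus strand: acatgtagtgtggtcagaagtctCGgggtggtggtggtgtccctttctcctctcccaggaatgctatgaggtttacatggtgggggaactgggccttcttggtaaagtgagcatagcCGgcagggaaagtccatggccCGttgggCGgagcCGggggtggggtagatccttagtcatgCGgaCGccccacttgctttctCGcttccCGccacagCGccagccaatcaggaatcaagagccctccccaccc
Uhrf1, downstream start, chr17:56304063-56304312, plus strand: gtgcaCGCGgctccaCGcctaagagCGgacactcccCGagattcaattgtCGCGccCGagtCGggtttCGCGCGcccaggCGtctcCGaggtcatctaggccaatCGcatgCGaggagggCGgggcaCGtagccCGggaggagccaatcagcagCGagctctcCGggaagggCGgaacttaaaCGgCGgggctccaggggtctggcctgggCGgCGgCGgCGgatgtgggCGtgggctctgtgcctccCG
Dnmt3a, long form, chr12:3806730-3806979, plus strand: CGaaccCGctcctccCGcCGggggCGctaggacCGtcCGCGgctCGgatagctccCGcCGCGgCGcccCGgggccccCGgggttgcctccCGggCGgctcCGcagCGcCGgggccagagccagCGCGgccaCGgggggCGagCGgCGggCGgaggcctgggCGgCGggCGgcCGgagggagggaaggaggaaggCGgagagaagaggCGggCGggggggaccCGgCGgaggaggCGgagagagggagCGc
Dnmt3a, internal start of the short form, chr12:3891494-3891743, plus strand: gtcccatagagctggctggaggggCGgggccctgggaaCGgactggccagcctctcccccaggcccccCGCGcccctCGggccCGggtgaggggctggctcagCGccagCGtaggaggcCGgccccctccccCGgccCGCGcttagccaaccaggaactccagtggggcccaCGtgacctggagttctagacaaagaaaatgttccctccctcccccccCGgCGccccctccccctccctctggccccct
Tet2, chr3:133544391-133544640, minus strand: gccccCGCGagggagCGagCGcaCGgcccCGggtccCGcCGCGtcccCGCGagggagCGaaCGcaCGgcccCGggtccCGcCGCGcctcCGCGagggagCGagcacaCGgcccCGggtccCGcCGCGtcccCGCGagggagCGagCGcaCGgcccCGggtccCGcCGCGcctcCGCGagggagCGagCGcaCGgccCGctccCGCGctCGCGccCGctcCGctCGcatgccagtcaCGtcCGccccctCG

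The starts of 1 gene differed widely in CpG. The upstream Dnmt1 window held 2 CpG and the main one 7, and 81.2% and 46.3% of all windows held as many or more. The window of Dnmt1-203, with 26 CpG, lies just downstream of the main start, within the span of Dnmt1-201. The Uhrf1 windows held 10 upstream and 30 downstream (37.8% and 5.94% of all windows held as many). For Dnmt3a the long form's window held 38 CpG and the internal one 15 (1.88% and 27.3%). Tet2, the dioxygenase gene with a single quantified transcript, had the densest member window: 51 CpG in 250 bases, a count reached by 0.0670% of all windows. The windows of the other starts held 14 (Mbd3), 15 (Tet1), 17 (Tet3), 21 (Dnmt3b), 26 (the start of Dnmt1-203) and 40 (another RefSeq start of long Dnmt3a). No quantified Tet1 transcript begins within 250 bases of the RefSeq start of the Tet1 window. The Tet3 window is that of Tet3-201 and Tet3-202, and the start of Tet3-203 had no window. The files hold no methylation measurements, so the windows describe sequence only.

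The letters TTTCGCGC, a form of the site of E2F factors that control S-phase genes, stood on either strand in 2 of the 13 member windows: the downstream Uhrf1 window above and that of Dnmt1-203. Of all windows 0.256% held it. The related forms TTTGGCGC and TTTCCCGC were in no member window and in 0.417% and 0.895% of all windows. These letters were chosen after the sequences had been seen, and a match is not a measured binding site.

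All 9 genes were detected, that is at 1 TPM (a transcript level corrected for length and scaled to a fixed total per library) or more in both libraries. Of 21461 nuclear protein-coding genes 63.1% were. Gene TPM spanned from Mbd3 at 178 ± 10.3 TPM (SD, n = 2) to Dnmt3b at 2.69 ± 0.219 TPM (SD, n = 2). The median over all nuclear coding genes was 5.72 TPM, and over the detected ones 19.4 TPM. The deposited intervals of gene TPM did not meet between the libraries for 5 of the 9 genes (Mbd3, Dnmt3a, Tet3, Dnmt1 and Tet2), beside 21.7% of the detected nuclear coding genes. In whole tissue, fewer cells of a type and less RNA per cell cannot be told apart.

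**Figure D1:**
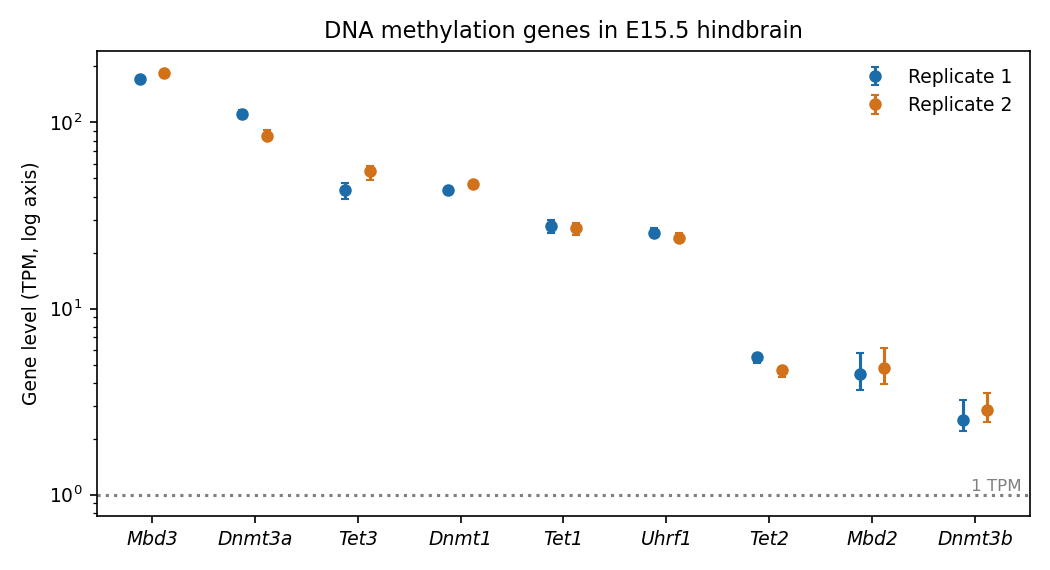
Gene TPM (log axis) of the 9 genes in replicates 1 and 2, ordered by mean. Points are the deposited values, bars the deposited TPM intervals, and the dotted line is the detection minimum of 1 TPM. Mbd3 stands highest and Dnmt3b lowest in both libraries, and the bars of the 2 libraries do not meet for Mbd3, Dnmt3a, Tet3, Dnmt1 and Tet2.

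Maintenance of methylation comes first. Dnmt1 (chr9:20907209-20959888, minus strand), the methyltransferase that copies methylation onto the new strand, stood at 43.48 TPM in replicate 1 and 46.68 TPM in replicate 2. Uhrf1 (chr17:56303321-56323486, plus strand), which binds hemimethylated CpG and modifies histone H3 for Dnmt1, stood at 25.53 and 23.99 TPM. The pools were close for both genes, and Dnmt1 was the higher in each pool. In TPM the ratio of Dnmt1 to Uhrf1 was 1.70 and 1.95, a mean of 1.82 ± 0.172 (SD, n = 2). It was 1.81 on reads over the longest coding transcript and 1.94 on coding transcripts alone.

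Dnmt1 RNA was divided among 3 starts. The transcript Dnmt1-201, with a reading frame of 1620 codons, had 26.38 and 30.51 TPM. Dnmt1-202, which begins at position 20959888 on chromosome 9 and has 1501 codons, had 15.05 and 14.42 TPM. Oocytes are known to use an upstream first exon of Dnmt1 for a form that lacks the amino-terminal part; whether the upstream exon here is that exon was not tested. The shares of coding TPM were 63.0 ± 3.32% for Dnmt1-201, 32.8 ± 2.63% for Dnmt1-202 and 4.23 ± 0.683% for Dnmt1-203 (SD, n = 2 each). With starts within 1000 bases taken as one, Dnmt1-201 and Dnmt1-203 share a start with 67.2 ± 2.63% (SD, n = 2). Only 275 bases of Dnmt1-201 and 156 of Dnmt1-202 lie in no other Dnmt1 transcript, so the split rests on a small part of each RNA. The main start led in both pools, and the upstream start, behind the CpG-poor window printed above, was next in both.

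The estimates divided Uhrf1 RNA between its 2 starts. Transcripts of the downstream start, behind the window with 30 CpG, held 51.4% of coding TPM in replicate 1 and 60.3% in replicate 2, and those of the upstream start 48.6% and 39.7%. The leading transcript was Uhrf1-204 with 11.32 and 12.27 TPM. Uhrf1-201 had 4.68 and 6 TPM, and Uhrf1-203 6.97 and 2.99 TPM. The deposited intervals of Uhrf1-203, 3.13 to 9.19 and 0.250 to 4.99 TPM, overlap, so the pools could not be told apart in it. Uhrf1-204 and Uhrf1-203 have 0 bases of their own, so the split between starts is uncertain, and with starts within 1000 bases taken as one, Uhrf1 has a single start.

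Uhrf1 frames also differ by 8 codons at 1 splice site (chr17:56313041-56313064). Frames of 782 codons hold the stretch and frames of 774 codons lack it. The sequence from Uhrf1-204 is given because the 2 frames differ only there, with the 24 differing bases in capitals and 15 flanking bases on each side in lower case.
Uhrf1, optional 8 codons: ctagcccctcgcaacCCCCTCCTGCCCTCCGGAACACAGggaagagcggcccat
The longer frame held 66.8% of coding TPM in replicate 1 and 80.7% in replicate 2, a mean of 73.8 ± 9.82% (SD, n = 2). It was the larger share in both pools.

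Of the de novo enzymes, Dnmt3a was high and Dnmt3b low. Dnmt3a (chr12:3806007-3914443, plus strand) stood at 111.54 and 84.66 TPM, rank 1671 of 21461 nuclear coding genes by mean TPM. Dnmt3b (chr2:153649450-153687730, plus strand), the main de novo enzyme of the early embryo, stood at 2.53 and 2.84 TPM, rank 12284. In TPM Dnmt3a exceeded Dnmt3b 44.1-fold in replicate 1 and 29.8-fold in replicate 2, a mean ratio of 36.9 ± 10.1 (SD, n = 2). That ratio was 21.8 ± 2.93 when all reads were set over the longest coding transcript and 25.1 ± 8.06 for coding transcripts only, so Dnmt3a was the higher by over an order of magnitude on each scale.

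The difference of Dnmt3a TPM between the pools came with a difference of transcript mix. Its counts were 11410 and 10979, while the mean effective length used for its TPM was 3953 bases in replicate 1 and 4745 in replicate 2. Dnmt3a has a long form of 908 codons and, from the internal start, a short form of 689 codons known as Dnmt3a2, which is typical of embryonic stem and germ cells. The long form Dnmt3a-201 had 25.35 and 25.64 TPM and was the same in both pools within its interval. The short form is carried by 2 annotated transcripts, Dnmt3a-203 with 16.69 and 19.07 TPM and Dnmt3a-205 with 22.07 and 0.34 TPM. Of the 3 member transcripts whose deposited intervals did not meet, Dnmt3a-205 had the widest difference: 14.6 to 28.8 TPM in replicate 1 and 8.17e-05 to 7.78 TPM in replicate 2. It has 16 bases in no other Dnmt3a transcript and Dnmt3a-203 has 0.

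The short form thus held 60.5% of coding TPM in replicate 1 and 43.1% in replicate 2. By counts, which are not corrected for length, it held 36.2% and 29.4%. The short form was lower in replicate 2 on both scales. Of its transcripts, Dnmt3a-205 was lower there and Dnmt3a-203 higher. Among complete coding transcripts, whether the short form exceeded the long form differed between the pools in TPM. These shares leave out partial coding models that begin near the start of the long form, so they do not compare all RNA of the starts. Dnmt3a-206, such a model of 827 bases at the 5′ end, had 22.05 and 16.90 TPM, and Dnmt3a-204 had 6.52 and 5.36 TPM. Dnmt3a-215, annotated as a target of nonsense-mediated decay, had 8.96 and 8.91 TPM. The antisense gene Dnmt3aos shares 133 exon bases with Dnmt3a and was at 0.03 and 0 TPM.

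At the low level of Dnmt3b its frames were poorly resolved. The estimates put 776-codon frames at 69.7% and 62.9% of coding TPM and the 860-codon frame at 30.3% and 37.1%, but the deposited posterior means put the 776-codon frames at 47.5% and 33.8%. None of its coding transcripts has a base of its own. Dnmt3b-206 had 0.77 and 1.30 TPM, Dnmt3b-205 0.68 and 0.16 TPM, Dnmt3b-207 0.63 and 0.86 TPM, and the retained-intron model Dnmt3b-211 0.35 TPM in both. Frames of the shorter kind lack 2 neighbouring exons of the catalytic domain, and such forms are known to be inactive alone. Those exons of Dnmt3b-207 are printed since they separate the active kind of frame from the other, with the exon in capitals.
Dnmt3b, chr2:153683608-153683677: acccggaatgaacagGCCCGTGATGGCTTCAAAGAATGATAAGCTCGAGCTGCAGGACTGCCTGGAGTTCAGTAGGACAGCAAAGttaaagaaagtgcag
Dnmt3b, chr2:153684359-153684477: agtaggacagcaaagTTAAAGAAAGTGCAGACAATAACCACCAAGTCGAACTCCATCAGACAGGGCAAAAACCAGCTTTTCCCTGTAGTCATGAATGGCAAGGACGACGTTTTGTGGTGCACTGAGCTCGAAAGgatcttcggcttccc
The remaining difference between these frames is an exon of 60 bases and 3 further bases, for 84 codons in all.

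Among the erasers, Tet3 was the highest and Tet2 the lowest in both pools. Tet3 (chr6:83362373-83459084, minus strand) stood at 43.42 and 54.58 TPM. Tet1 (chr10:62804570-62908996, minus strand) stood at 27.75 and 27.05 TPM. Tet2 (chr3:133463679-133545139, minus strand), which lacks the CXXC domain that other Tet proteins can use to bind CpG, stood at 5.51 and 4.66 TPM, with deposited intervals of 5.10 to 5.69 and 4.30 to 4.83 TPM that did not meet. Of the summed Tet TPM, Tet3 held 59.9 ± 4.69%, Tet1 33.8 ± 3.42% and Tet2 6.29 ± 1.26% (SD, n = 2 each).

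The order of the 3 Tet genes was the same on each scale, but the distances were not. In TPM the ratio of Tet3 to Tet2 was 7.88 and 11.7. For coding transcripts alone it was 2.80 and 3.50, and for reads over the longest coding transcript 3.12 and 3.97. Tet2 has only 1 quantified transcript, so its value hardly moves. The gene span printed above runs to 133545139, past the start of that transcript at 133544390. Any Tet2 transcript known only to a newer annotation was not counted. The shares among the Tet genes for coding transcripts were 59.3 ± 3.03% for Tet3, 21.7 ± 1.01% for Tet1 and 19.0 ± 2.02% for Tet2.

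Tet1 and Tet3 owe much of their gene TPM to short models without a complete frame. The leading transcript of Tet1 was Tet1-202, a processed transcript of 1505 bases, with 15.57 and 14.94 TPM. Only 169 of these bases lie in no other Tet1 transcript, so its level rests on a small part of it. The full-length Tet1-206, with 2039 codons in 14369 bases, had 5.92 and 4.59 TPM. Yet complete coding transcripts held 75.8% and 74.4% of Tet1 counts, against 21.8% and 20.6% of its TPM. The partial model Tet1-205 had 4.22 and 4.86 TPM.

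Tet3 showed the same kind of split. Tet3-201, a processed transcript, led with 20.19 and 23.54 TPM. Only 182 of its 2523 bases lie in no other Tet3 transcript. Of the coding frames, Tet3-202 with 1668 codons had 8.81 and 8.43 TPM, and Tet3-203 with 1803 codons 6.63 and 7.89 TPM. The longer frame is the kind that carries the CXXC domain, and the shorter one, from a start inside the gene, is known as the common Tet3 form of neurons. The shorter frame held 57.1% and 51.7% of coding TPM. Tet3-202 has 5669 bases in no other Tet3 transcript, all past the 3′ end of Tet3-203 and none in its frame, and Tet3-203 has 835, so the split of the frames rests partly on the 3′ end. The deposited intervals of Tet3-203 did not meet, at 5.93 to 7.07 TPM in replicate 1 and 7.13 to 8.35 TPM in replicate 2. The gene TPM difference between the pools went mostly with Tet3-204, a partial model of 469 bases, at 7.78 and 14.73 TPM with overlapping intervals.

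Of the 2 readers, Mbd3 was the highest of the 9 genes and Mbd2 was among the 3 lowest. Mbd3 (chr10:80392539-80399550, minus strand) stood at 170.71 and 185.30 TPM, rank 805 of the nuclear coding genes. Mbd2 stood at 4.44 and 4.80 TPM, rank 11215, on 148 and 166 counts. In TPM the ratio of Mbd3 to Mbd2 was 38.4 and 38.6. It was 45.9 ± 0.209 on reads over the longest coding transcript and 32.3 ± 1.13 for coding transcripts (SD, n = 2 each).

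Most complete coding RNA of Mbd3 carried the shorter of its main frames. Mbd3-204, with 253 codons, had 70.72 and 72.63 TPM, and Mbd3-201, with 285 codons, had 29.36 and 28.46 TPM. Their shares of coding TPM were 64.6 ± 1.31% and 26.1 ± 1.59% (SD, n = 2 each). The frames differ by 32 codons (chr10:80399122-80399217) that belong to the methyl-binding domain. The 96 bases are given in capitals, within 15 flanking bases of Mbd3-201, because they separate the main frames. They are the only bases of Mbd3-201 in no other Mbd3 transcript, and Mbd3-204 has 0 of its own, so the split rests on them.
Mbd3, 32 codons of the longer frame: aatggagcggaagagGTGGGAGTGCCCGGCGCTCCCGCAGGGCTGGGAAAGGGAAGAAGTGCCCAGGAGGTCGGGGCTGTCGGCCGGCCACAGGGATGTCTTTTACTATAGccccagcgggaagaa
The partial model Mbd3-206, at the 3′ end of the gene, had 61.81 and 70.48 TPM. It does not reach these 96 bases and is not in the shares. Frames of 281 and 261 codons were minor, with 4.28 and 7.22 TPM for Mbd3-203 and 3.50 and 5.68 TPM for Mbd3-202.

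Mbd2 (chr18:70568189-70626131, plus strand) had 2 coding frames of like level. Mbd2-201, the full frame of 414 codons, had 1.95 and 1.91 TPM. Mbd2-202, a truncated frame of 249 codons, had 1.31 and 1.71 TPM, and the retained-intron model Mbd2-204 0.85 and 1.04 TPM. The full frame held 59.8% and 52.8% of coding TPM, and the intervals of the frames overlapped within each library.

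**Figure D2:**
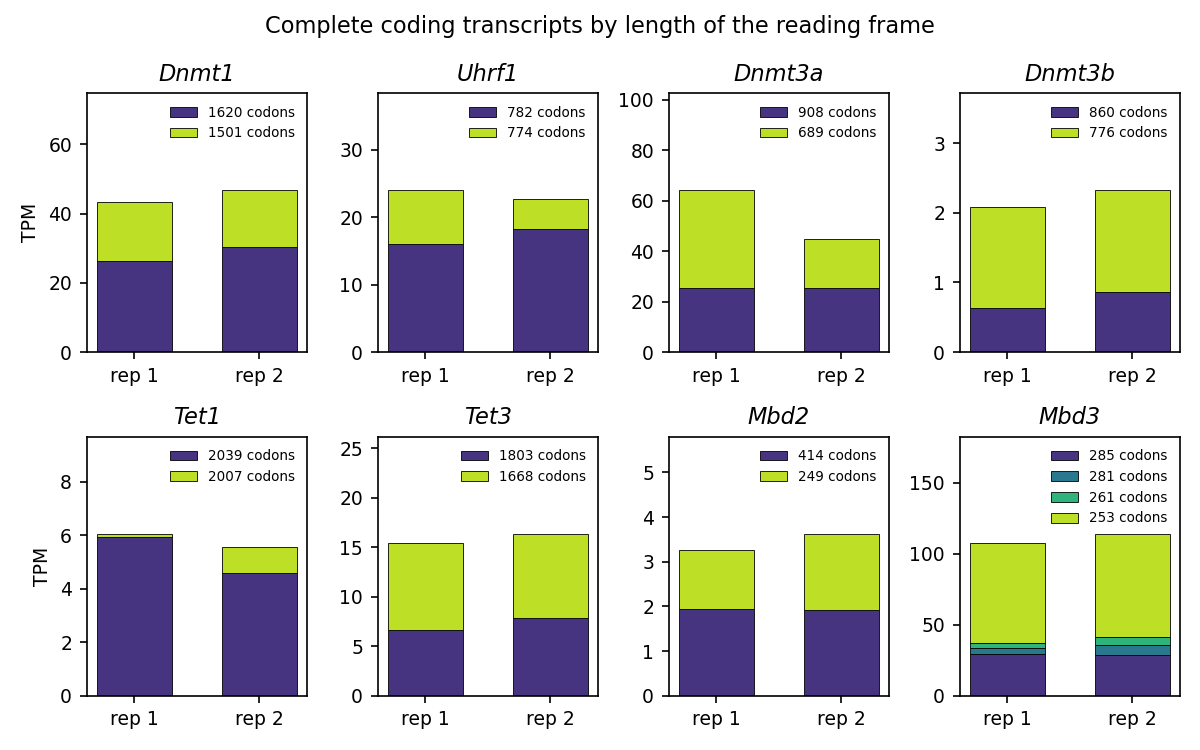
TPM of complete coding transcripts of 8 genes in each library, stacked by the number of codons in the frame; Tet2 has 1 frame and is left out. The 689-codon part of Dnmt3a is smaller in replicate 2 while its 908-codon part is level, and the 253-codon frame is the largest part of Mbd3 in both libraries.

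The leading transcript was the same in both libraries for all 8 members with several transcripts. Among 8395 genes of several transcripts at 5 TPM or more, 93.6% kept their leader. Dnmt3b and Mbd2 are under that minimum, and the other 6 members all kept theirs. The leader was annotated as protein coding in 6 of the 8, with Tet1 and Tet3 the exceptions. At the minimum of 5 TPM this was 4 of 6 members, beside 89.5% of 8177 nuclear coding genes. Deposited transcript intervals were apart between the libraries for 3 of the 34 member transcripts at 1 TPM or more in either library, namely Dnmt3a-205, Tet2-201 and Tet3-203. Of all such transcripts 9.36% were apart. The members' counts are too few to set them off from these backgrounds.

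All quantified transcripts of Dnmt1 and Tet2 are complete coding, so their share of 100% was fixed by the annotation. Complete coding transcripts held 94.1 ± 0.397% of Uhrf1 TPM, 81.8 ± 0.141% of Dnmt3b TPM and 74.4 ± 1.41% of Mbd2 TPM (SD, n = 2 each). The shares were 62.3 ± 1.18% for Mbd3, 55.3 ± 3.02% for Dnmt3a, 32.7 ± 4.01% for Tet3 and 21.2 ± 0.856% for Tet1. Tet1 and Tet3 were thus the 2 members under 50%, which 16.5% of the 8177 coding genes were. The median over all 9, Dnmt1 and Tet2 included, was 74.4%. Those 8177 genes have several transcripts and at least 5 TPM, and their median was 86.1%, beside 58.8% for the 6 members that meet the same conditions.

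**Figure D3:**
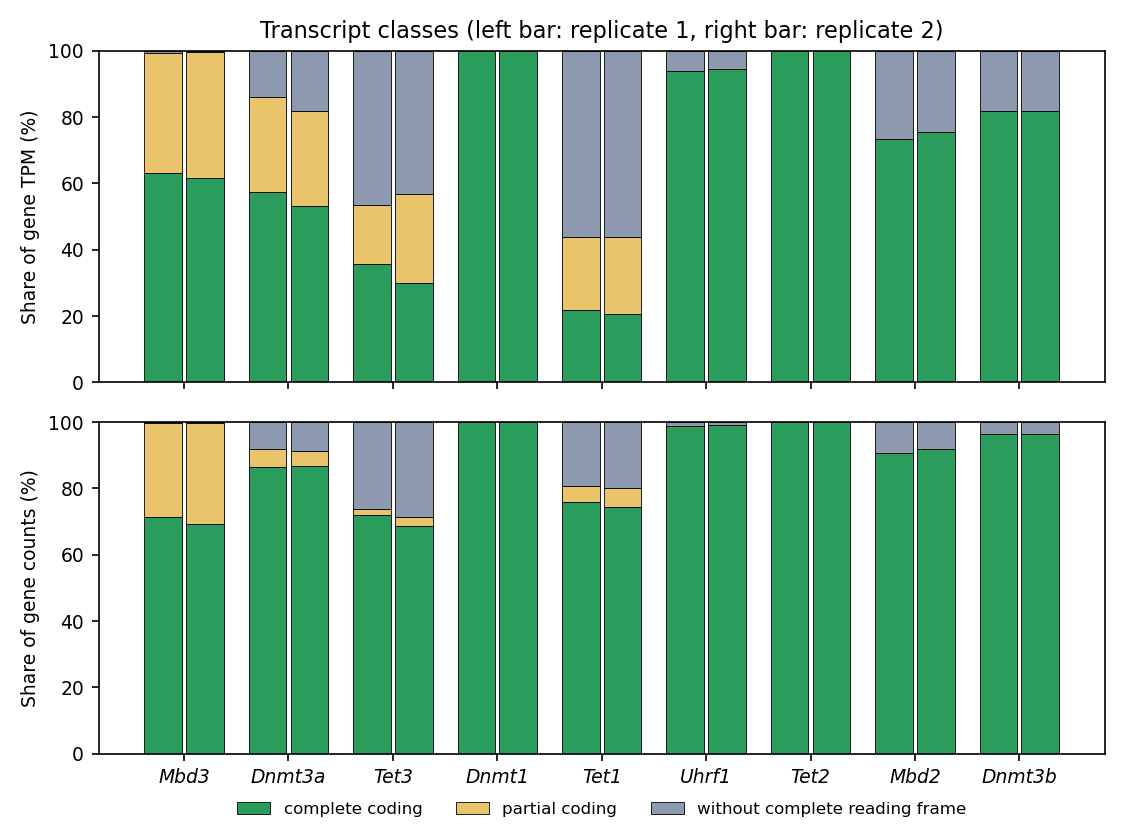
Share of each gene's TPM (top) and of its estimated counts (bottom) in complete coding, partial coding and other transcripts, with replicate 1 on the left of each pair. In Tet1 and Tet3 the complete coding part is under 50% of TPM but over 50% of counts in both libraries.

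The order of the genes therefore depends in part on how length is treated. In gene TPM it ran Mbd3, Dnmt3a, Tet3, Dnmt1, Tet1, Uhrf1, Tet2, Mbd2, Dnmt3b. The ranges of Tet3 and Dnmt1 overlapped between the pools, as did those of Tet2 and Mbd2, so neither pair can be ordered. Tet1 and Uhrf1 did not overlap but were 1.11-fold apart. With all reads over the longest complete coding transcript, Tet3 fell to 17.8 ± 0.907 TPM and Tet1 to 7.70 ± 0.371 TPM, both below Uhrf1 at 22.7 ± 0.918 TPM (SD, n = 2 each). Dnmt3a, at 44.0 ± 2.89 TPM, and Dnmt1, at 41.0 ± 2.05 TPM, then overlapped. Gene TPM exceeded this measure 3.56-fold in Tet1, 2.75-fold in Tet3 and 2.23-fold in Dnmt3a, and by less than 1.5-fold in the other 6.

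Mbd3 was the highest and Dnmt3b the lowest on all 3 scales. On coding transcripts alone Mbd3 had 110.9 ± 4.33 TPM, Dnmt3a 54.6 ± 13.5, Dnmt1 45.1 ± 2.26, Uhrf1 23.3 ± 0.926, Tet3 15.9 ± 0.622, Tet1 5.80 ± 0.339, Tet2 5.09 ± 0.601, Mbd2 3.44 ± 0.255 and Dnmt3b 2.20 ± 0.170 TPM (SD, n = 2 each). Summed by role in gene TPM, maintenance came to 69.8 ± 1.17, de novo to 100.8 ± 18.8, erasers to 81.5 ± 6.80 and readers to 182.6 ± 10.6 TPM. On coding transcripts these sums were 68.4, 56.8, 26.8 and 114.4 TPM. The erasers lay above maintenance in gene TPM and below it on coding transcripts, in both pools. Single genes made up most of 2 sums in gene TPM: Mbd3 held 97.5% of the readers' sum and Dnmt3a 97.3% of the de novo sum.

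**Figure D4:**
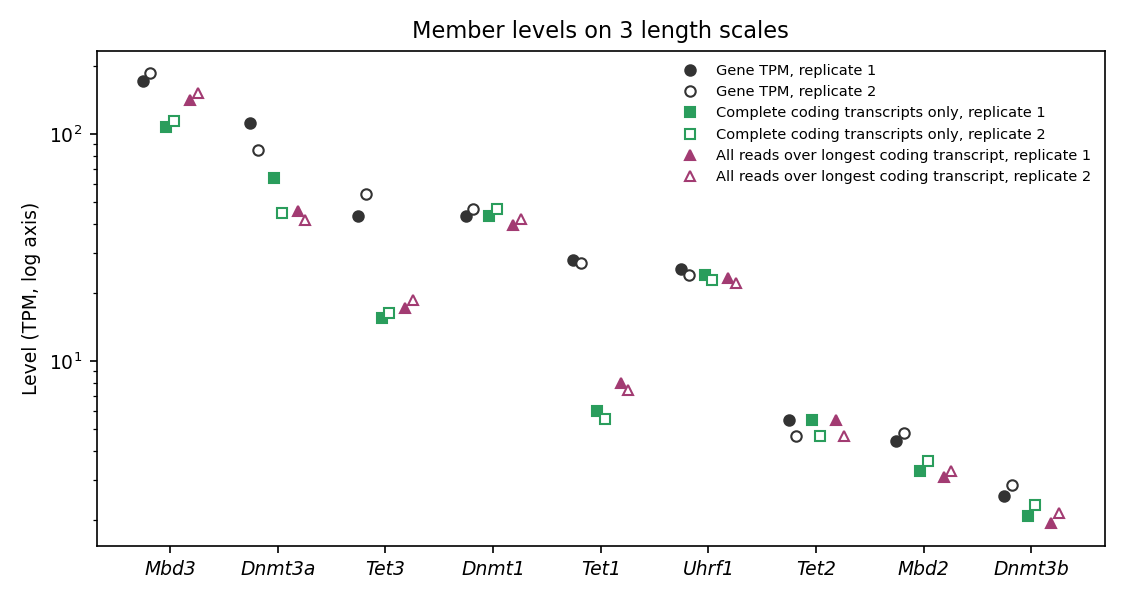
Level of each gene (log axis) by gene TPM, by complete coding transcripts only, and by all reads over the longest complete coding transcript, for replicate 1 (filled) and replicate 2 (open). Tet1, Tet3 and Dnmt3a lie lower on the last 2 scales, whereas Dnmt1, Uhrf1 and Tet2 hardly move.

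No member differed by 1.5-fold between the pools, in either direction. Of 17048 genes whose mean count was at least 20, 6.48% did: 2.22% were higher in replicate 2 and 4.26% lower. The log2 ratio of replicate 2 over replicate 1, on counts scaled by trimmed mean of M values (TMM), ran from -0.27 for Tet2 to 0.11 for Dnmt3b. It was -0.17 for Dnmt3a, -0.13 for Tet1, -0.12 for Uhrf1, 0.07 for Dnmt1 and for Tet3, 0.06 for Mbd3 and 0.05 for Mbd2. The median was 0.05, beside 0.00 for all genes, and the median size without sign was 0.109, beside 0.111.

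The exact 95% interval for counting error left out 0 for 7 of the 9, beside 38% of all compared genes; it included 0 for Dnmt3b (-0.16 to 0.38) and Mbd2 (-0.27 to 0.38). That interval covers counting error only, and it is narrower for deeply counted genes. For Tet2 it was -0.39 to -0.16. Scaling by spike-ins moved all genes by -0.11 and put all 9 members below 0, so the direction of the 5 above 0 (Dnmt1, Tet3, Mbd3, Mbd2 and Dnmt3b) depends on the scaling. As a ratio of TPM, Dnmt3a came to -0.40 and Tet3 to 0.33, the genes whose effective lengths differed most between the libraries.

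**Figure D5:**
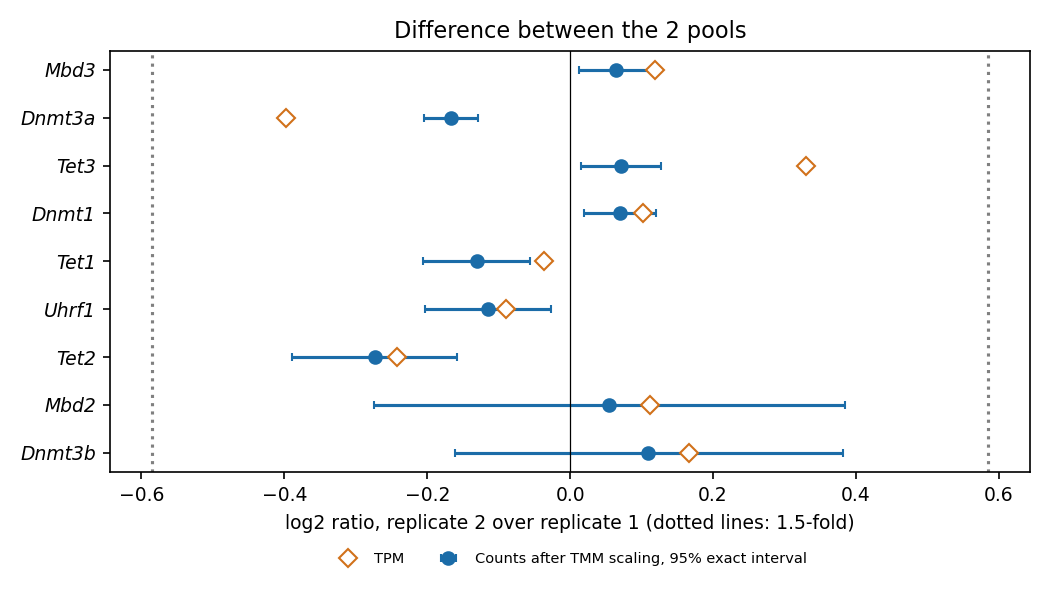
Log2 ratio of replicate 2 over replicate 1 for each gene from TMM-scaled counts (filled, bars are exact 95% intervals for counting error) and from TPM (open). All points lie inside the dotted 1.5-fold lines, and the 2 measures are farthest apart for Dnmt3a and Tet3.

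The pools also differed in markers of cells and position. Of 10 genes of dividing cells, in which Dnmt1 and Uhrf1 are known to be used most, all were detected, with summed TPM of 413.9 and 360.5, a median log2 ratio of -0.25 and 1 past 1.5-fold, Mki67 at -0.66. Neuronal and radial glial lists, 8 of 8 detected in each, had medians of 0.03 and 0.02, with radial glial genes from -0.33 (Nes) to 0.35 (Pax6). All 9 Hox and other hindbrain position genes were detected. Of 7 forebrain genes 1, Neurod6, was detected, and 5 were past 1.5-fold higher in replicate 2, with a list median log2 ratio of 2.97. Neurod6, at 23.64 and 35.36 TPM with a log2 ratio of 0.55, made up most of the summed TPM of 25.7 and 48.0. Dlx1 was at 0.3 and 5.52 TPM. Emx2, with a log2 ratio of -0.05, was the only gene of that list not higher in replicate 2. Medians were -0.35 for erythroid (6 of 6 detected), -0.36 for meningeal (7 of 7), -0.34 for microglial (6 of 6), -0.06 for endothelial (5 of 5) and 0.44 for choroid plexus genes (4 of 5). Past 1.5-fold were 2 meningeal genes, Foxc1 at -0.59 and Ptgds at -0.62, and the choroid plexus gene Folr1 at 0.73. Their part in the members' ratios was not tested.

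The partners of the pathway were broadly present, in lists chosen with earlier results of these data known. All 8 maintenance partners were detected, with a median of 21.1 ± 0.382 TPM. The highest were Pcna, the sliding clamp of replication, at 94.1 ± 4.49 TPM, the Uhrf1 relative Uhrf2 at 40.2 ± 0.177 TPM and the DNA ligase Lig1 at 31.5 ± 1.48 TPM (SD, n = 2 each). Uhrf2 was thus above Uhrf1 in both pools.

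Of 7 partners and regulators of de novo methylation 5 were detected. The histone methyltransferases Ehmt2 and Ehmt1 had 75.9 ± 3.79 and 65.8 ± 0.594 TPM, and the demethylase Kdm1b 17.5 ± 0.636 TPM (SD, n = 2 each). Not detected were the germ cell cofactor Dnmt3l, at 0 and 0.07 TPM, and Dppa3, which shields the maternal genome, at 0.07 and 0 TPM. For a count of 0, 3 counts would have been 0.105 TPM for Dnmt3l in replicate 1 and 0.166 TPM for Dppa3 in replicate 2, so both libraries lay at or under that floor.

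Downstream of the Tet enzymes, 15 of 16 genes of oxidation and base excision repair were detected, with a list median of 30.5 ± 3.08 TPM. The endonuclease Apex1 had 146.8 ± 2.14 TPM, the Tet partner Ogt 144.9 ± 0.933 TPM, and Tdg, the glycosylase that removes oxidised 5-methylcytosine, 119.9 ± 4.86 TPM (SD, n = 2 each). Tdg was higher than any Tet gene in both pools. Gadd45g, which is transient in newborn neurons, was the 1 gene of the list past 1.5-fold, at 71.21 and 46.77 TPM and a log2 ratio of -0.64. Neil2 was not detected, at 0.27 and 0.32 TPM.

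All 7 genes listed as other readers were detected, with a median of 13.5 ± 0.799 TPM. Whether each of them binds methylated DNA was not tested. Zbtb38 had 35.2 ± 2.86 TPM, Mbd5 22.5 ± 0.283 TPM and Mbd1 21.4 ± 0.735 TPM (SD, n = 2 each). Each of these 3 stood above Mbd2 and below Mbd3 in both pools.

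The NuRD complex, in which Mbd2 and Mbd3 replace each other, had all 13 listed subunits detected at a median of 71.4 ± 3.34 TPM. The deacetylase Hdac2 had 250.4 ± 9.34 TPM, and the histone chaperones Rbbp4 and Rbbp7 203.1 ± 9.36 and 184.2 ± 0.898 TPM (SD, n = 2 each). The gene TPM of Mbd3 was close to that of Rbbp7, while Mbd2 was below every one of these 3. Each of the 9 genes of the methyl donor cycle was detected, and their median was 23.8 ± 0.0990 TPM. Its highest gene was Mat2a, which makes S-adenosylmethionine, at 221.5 ± 7.83 TPM. Mat2b had 45.8 ± 1.08 TPM and Shmt2 36.7 ± 2.15 TPM (SD, n = 2 each). In these 3 lists no gene was past 1.5-fold.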

How the data were processed

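Each library came with a gene and a transcript table, made on mm10 with GENCODE M4 from that library alone, per the file headers and notes. Which aligner and quantifier made them, and whether counting used strand, is not given here by any source. The estimated counts, as deposited, are unnormalized and need not be whole. The deposited TPM and FPKM values are scaled over all features, spike-ins included, per the file headers. The deposited percent of a gene held by a transcript was used only to check shares. Posterior values and TPM interval bounds, a deposited signal of the estimator, mark uncertainty.

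Symbols, transcript types, frames and starts came from GENCODE M21 on GRCm38 by identifier; 42462 of 43346 genes matched, and 59 of the 62 member transcripts had the same length. Transcripts that only M21 holds have no values here. A complete coding transcript is annotated as protein coding with no mark of a missing end, and a partial one has that mark. Spike-ins, 2.86% and 3.09% of counts, and 26248 features with numeric identifiers stayed out of gene totals. Starts within 100 bases were one (also tried: 1000). Rank is among 21461 nuclear coding genes. Ratios used estimated counts, TMM scaling from edgeR 4.0.16 in R 4.3.3 and a prior count of 0.5. They covered genes of mean count 20 or more, with Clopper-Pearson intervals. The ratio step was tested on simulated counts with sampling error only and changes larger than 1.5-fold. That test does not bear on changes near 1.5-fold or on the spread between these pools. Counts of the libraries differed beyond sampling (chi-square per degree of freedom 12.4), so both were kept as replicates.

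Alternatives were posterior mean TPM, FPKM, other minimums and folds, DESeq2 1.42.0 size factors, library or spike-in totals, TPM ratios, and each library alone. Named were all members, member transcripts with a share of 10% or more, and in each pathway list the 3 highest genes, genes past 1.5-fold and genes not detected. A few minor transcripts and marker genes outside this rule are named too. Some genes of the lists are not reported singly here. Members and lists were chosen with earlier results of these data known.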

Additional observations from a re-analysis of the deposited data

How the results depend on the processing

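Values were recomputed under other units, scalings, minimums and single libraries. All 9 genes stayed detected under each of 7 alternatives, and 0 passed the fold under each of 10. The median log2 ratio stayed between -0.06 (spike-in totals) and 0.10 (TPM, pseudocount 0.1). Length treatment, added after seeing the data, moved 4 of the 5 ratios and not Dnmt1 over Uhrf1. With reads over the longest coding transcript, Dnmt3a over Dnmt3b was 21.8, Tet3 over Tet1 2.32, Tet3 over Tet2 3.55 and Mbd3 over Mbd2 45.9. With coding transcripts alone these were 25.1, 2.75, 3.15 and 32.3. Posterior mean TPM gave 36.3 for Mbd3 over Mbd2. Single libraries gave 29.8 to 44.1, 1.56 to 2.02, 7.88 to 11.7 and 38.4 to 38.6, and 1.70 to 1.95 for Dnmt1 over Uhrf1. Restricted to protein-coding models, the leader was the same in 6 of 8 genes. At 0.5 TPM, 3 germline genes were detected. Depth limits Mbd2 and Dnmt3b most. No paired analysis was possible because there was 1 group.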

Other observations

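None of 12 germline genes that promoter methylation is known to hold silent in body cells was detected, and their median was 0.165 ± 0.0354 TPM (SD of the 2 library medians). The highest were the piRNA pathway genes Ddx4, at 0.97 and 1.01 TPM, and Tdrd1, at 1.04 and 0.90 TPM, each at the detection minimum in 1 library only. Slc25a31 had 0.58 TPM in both libraries, Mael 0.35 and 0.18, Sycp3 0.24 and 0.26, Stk31 0.12 and 0.04, and Taf7l 0.08 and 0.03 TPM. Dazl, on 15 and 26 counts, was past 1.5-fold higher in replicate 2 with a log2 ratio of 0.66, and its interval for counting error, -0.29 to 1.70, included 0. Sycp1, Asz1, Tex101 and Hormad1 had no counts, and 3 counts would have been 0.0347 to 0.121 TPM in replicate 1. With no library of altered methylation, whether the members bear on these levels was not tested.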
